A study of Mus musculus with 8 samples.

Results

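The Wnt genes described here are 42 genes of the Wnt pathway, chosen by symbol: 8 genes of ligands, of a ligand-like secreted factor and of ligand processing, 8 secreted antagonists, 12 receptors and co-receptors, and 14 genes that act in or near the membrane, in the cytoplasm or in the nucleus of the receiving cell. Of the 42, 41 had a probe set that names 1 gene on the array, 31 passed a filter on low signals and were tested, 10 lay below it, and Tcf7 was not matched. They were measured among 18194 genes, of which 10913 were tested, in RNA of whole yolk sacs from mouse embryos at E9.5 on 8 Affymetrix arrays. A signal here is the linear value deposited for a probe set on 1 array, and each gene is represented by the brightest of its probe sets on average.

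The arrays form 2 sets, each with 2 mutant and 2 wild type arrays. EC-N1ICD yolk sacs carried the Tie2-Cre transgene and 1 ROSA allele from which Cre releases the intracellular domain of NOTCH1 (Tie2 Tg/0; ROSA +/N1ICD). Their wild type was Tie2 0/0; ROSA +/+, and the strain of this set is given as C57BL6. EC-Rbpj-KO yolk sacs carried Tie2-Cre and 2 floxed Rbpj alleles (Tie2-Cre; Rbpj flox/flox), and their strain is given as mixed, as is that of their wild type, for which no genotype is given. Tie2-Cre acts in endothelial and hematopoietic cells, whereas the RNA came from the whole tissue, which also holds visceral endoderm, mesoderm and blood. For every value below, fewer cells of a type and less RNA per cell cannot be told apart. In Rbpj flox/flox mice, Cre removes the exons that encode the DNA-binding domain, and the position of the Rbpj probes relative to them was not examined. The titles of replicate 1 of both mutants begin with a number that differs from the rest of the set, for which the labels give no reason. The labels do not state that each array held 1 separate embryo, so the p-values reflect only how far these samples vary. The 2 EC-Rbpj-KO arrays differed in Xist (2005 and 84) and Eif2s3y (12 and 827), so they did not hold RNA of the same embryo. For the other groups the variation may be technical.

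Wnt ligands are secreted lipid-modified proteins. They bind Frizzled receptors together with the co-receptors Lrp5 and Lrp6, which stops a destruction complex built on Axin, Apc and Gsk3b from breaking down β-catenin, and β-catenin then activates genes with Tcf and Lef factors. A branch without β-catenin runs through receptors such as Ror2. Secreted antagonists either bind the ligands, as Sfrp proteins, Frzb and Wif1 do, or bind the co-receptors, as Dkk1 does. In the mouse, Fzd5 is known to be needed for blood vessel growth in the yolk sac. RBPJ is the DNA-binding protein through which the Notch intracellular domain activates its targets.

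Rbpj itself gave 470 and 497 in EC-Rbpj-KO yolk sacs, against 984 and 919 on their wild type arrays (log2 fold change -0.98 with a standard error of 0.17 and n = 2 each, limma adjusted p = 0.00866). In EC-N1ICD yolk sacs it reached 776 and 1013, against 915 and 887 in their wild type. Both EC-N1ICD arrays carried Xist at 3600 and 3730 and almost no Y-linked Eif2s3y, and both of their wild type arrays showed the reverse, so the sex of the embryo and the genotype cannot be told apart within this set. EC-Rbpj-KO replicate 1 also carried Xist, at 2005, and the other 3 arrays of its set did not. The ratio of 3' to 5' signal of Actb, a sign of RNA quality, was 1.72 and 1.75 in EC-N1ICD yolk sacs against 2.10 and 2.34 in wild type, and 2.29 and 2.09 in EC-Rbpj-KO yolk sacs against 1.90 and 1.84 in wild type. For Gapdh the ratio was 2.43 and 2.48 in EC-N1ICD yolk sacs against 3.12 and 2.76 in wild type. In EC-Rbpj-KO yolk sacs it was 4.64 on replicate 1 and 3.45 on replicate 2, against 3.17 and 3.51 in wild type. Markers of 10 tissues were summed on each array, since the yolk sac holds several. Smooth muscle markers summed to 20118 and 18930 in EC-N1ICD yolk sacs against 9877 and 11626 in wild type, and cardiac muscle markers to 2909 and 2393 against 611 and 750 in wild type. Of the smooth muscle markers, Acta2, Tagln, Cnn1, Myl9 and Tpm2 were higher and Myh11 was lower (log2 fold change -1.11). Of the cardiac markers, Actc1 (2369 and 1726 in EC-N1ICD yolk sacs), Myl7, Tnnt2, Myh6 and Ttn were higher. Myl4, Nppa and Nkx2-5 had negative log2 fold changes there (-0.24, -0.11 and -0.20). The part of sex, RNA quality and tissue makeup in the values of the Wnt genes was not tested beyond a fit with sex as a term. In the EC-Rbpj-KO set that term rests on replicate 1 alone, so for EC-Rbpj-KO the fit returns the fold change found without this array, and the term it applies to the EC-N1ICD set is also that array's difference from replicate 2.

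At an adjusted p under 0.05, none of the 31 tested Wnt genes passed in EC-N1ICD, beside 0.376% of all tested genes called higher and 0.220% called lower. In EC-Rbpj-KO, Wnt4 and Dkk1 rose and none fell, beside 2.0% of all genes called higher and 2.96% called lower. None of the 31 had a change that differed between the models, beside 0.266% of all genes. At an unadjusted p under 0.05 from limma, 8 were higher and 1 lower in EC-N1ICD (6.52% and 5.47% of all genes), and 5 were higher and 2 lower in EC-Rbpj-KO (8.36% and 11.6% of all genes). For the difference between the models, Sfrp1, Fzd5 and Fzd7 were higher in EC-N1ICD relative to EC-Rbpj-KO at an unadjusted p under 0.05 and Porcn and Dkk1 lower, where 6.67% and 4.18% of all genes were. Before adjustment, the test of the study's methods called Wnt4, Dkk1 and Fzd1 higher in EC-N1ICD, where it called 5.0% of all genes higher, and Wnt4, Dkk1 and Porcn higher in EC-Rbpj-KO, where it called 5.57% higher. After adjustment it called no Wnt gene and no other gene in either model. The paper names this test for its data in general and names none for the arrays. Here it was applied to log2 values of 2 arrays a group, with equal variances assumed. Its counts are therefore not results of an array analysis made by the study.

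Both mutant arrays lay above both wild type arrays for 14 of the 31 genes in EC-N1ICD, and below for 2, where 23.7% and 18.9% of all tested genes did so. In EC-Rbpj-KO, 7 lay above and 6 (Fzd5, Fzd6, Fzd7, Lrp5, Axin2 and Tcf7l2) below, beside 23.3% and 27.5% of all genes. With 2 arrays a group, the smallest p that an exact permutation test allows is 0.333, and no such test was run. The 31 genes had a median log2 fold change of 0.24 in EC-N1ICD yolk sacs, against 0.01 over all tested genes, and of -0.04 in EC-Rbpj-KO yolk sacs, against -0.02, where it turned to 0.03 under median centring. By class, the medians in EC-N1ICD were 0.80 for the 4 tested ligand genes, 0.54 for the 5 antagonists, 0.24 for the 11 receptors and 0.18 for the 11 intracellular genes. The same classes had medians of 0.90, -0.12, -0.11 and -0.10 in EC-Rbpj-KO. For receptors and intracellular genes, the EC-N1ICD medians lay within the spread of single arrays around the wild type mean. Receptors had 0.10 and 0.39 on the EC-N1ICD arrays, with 0.17 on wild type replicate 1. Intracellular genes had 0.18 and 0.24, with 0.25 on wild type replicate 1. All 4 tested ligand genes had a positive fold change in both models. Of the 11 receptors, 8 did so for EC-N1ICD and 4 for EC-Rbpj-KO, beside 52.3% and 46.6% of all tested genes. Wnt11 passed the filter only through the EC-N1ICD arrays, Dkk1 only through the EC-Rbpj-KO arrays and Lrp5 only through arrays of the EC-Rbpj-KO set. The counts and medians here include these genes, which the arrays where they are high brought into the test. The difference between the models was tested gene by gene and for no class.

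**Figure D1:**
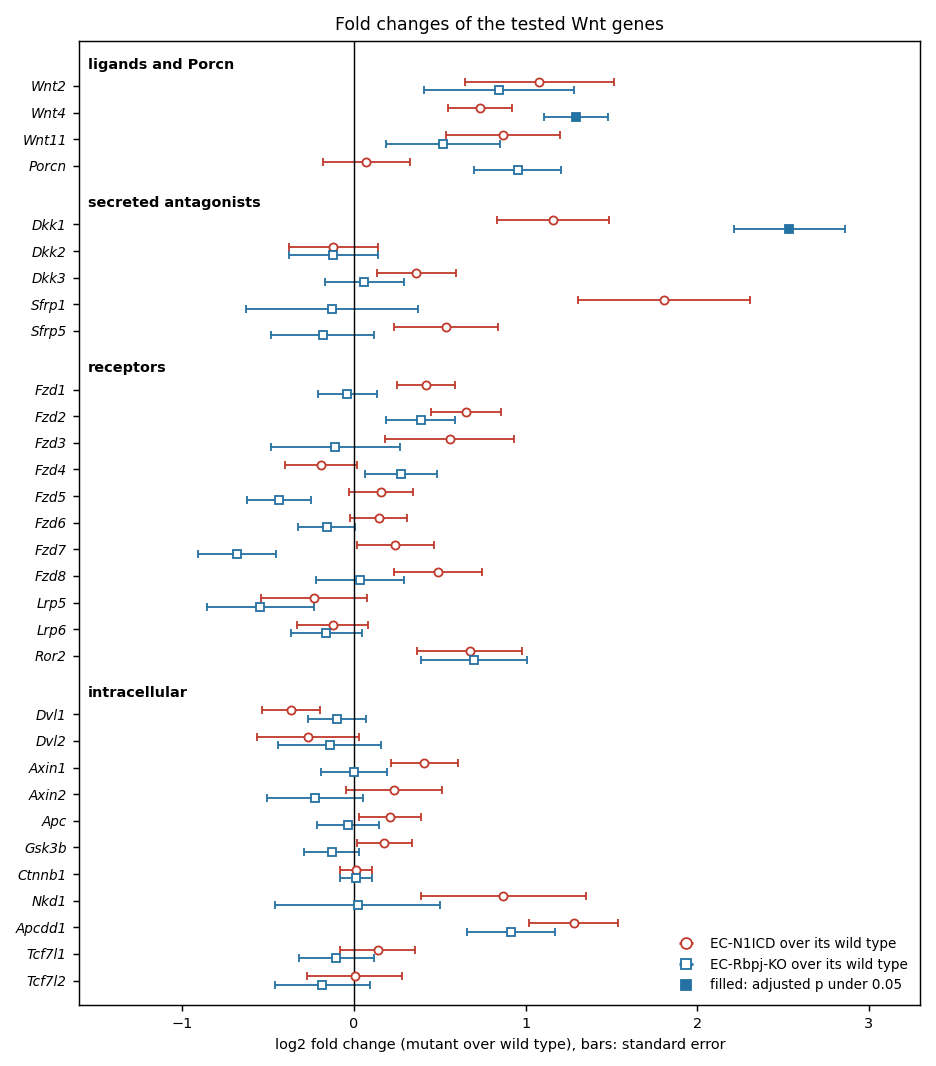
Log2 fold changes (x axis, mutant over the wild type of its own set) of the 31 tested Wnt genes, by class, in EC-N1ICD (circles) and EC-Rbpj-KO (squares), with standard errors from limma as bars. The filled symbols are the 2 changes past an adjusted p of 0.05, Wnt4 at 1.29 and Dkk1 at 2.54 in EC-Rbpj-KO.

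Upstream sequence was taken for 4 genes: Wnt4 and Dkk1, which passed the test, and Frzb and Wnt11, whose windows hold a motif searched for and whose signals are given below. RefSeq promoter windows (GRCm38.p6) were at hand for 28 of the 42 genes, in 37 windows of 300 bases, 250 before and 50 after a transcript start, and the 250 bases before the start are printed, 5′ to 3′ on the strand of the gene. Capitals mark the RBPJ core motif GTGGGAA in Frzb and the TCF/LEF core motif CTTTGAT in Wnt11, where it lies on the opposite strand and reads ATCAAAG. Both motifs were searched on both strands, and they do not overlap. The windows lie at chr4:137277385-137277634 (plus strand, Wnt4), chr19:30549497-30549746 (minus strand, Dkk1), chr2:80447397-80447646 (minus strand, Frzb) and chr7:98834862-98835111 (plus strand, Wnt11).
Wnt4: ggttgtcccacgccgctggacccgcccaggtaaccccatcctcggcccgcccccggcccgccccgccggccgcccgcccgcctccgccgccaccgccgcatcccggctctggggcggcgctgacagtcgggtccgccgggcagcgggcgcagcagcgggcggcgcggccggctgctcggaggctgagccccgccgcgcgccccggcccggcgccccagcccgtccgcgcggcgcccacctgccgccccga
Dkk1: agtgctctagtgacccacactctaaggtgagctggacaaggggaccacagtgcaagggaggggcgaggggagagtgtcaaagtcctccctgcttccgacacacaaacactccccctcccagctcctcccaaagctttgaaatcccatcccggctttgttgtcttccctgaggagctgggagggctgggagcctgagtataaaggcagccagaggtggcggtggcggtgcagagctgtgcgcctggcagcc
Frzb: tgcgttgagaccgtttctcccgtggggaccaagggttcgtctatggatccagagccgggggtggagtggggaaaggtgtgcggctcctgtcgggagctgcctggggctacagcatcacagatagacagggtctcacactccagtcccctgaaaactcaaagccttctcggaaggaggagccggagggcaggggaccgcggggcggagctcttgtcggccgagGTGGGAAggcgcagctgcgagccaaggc
Wnt11: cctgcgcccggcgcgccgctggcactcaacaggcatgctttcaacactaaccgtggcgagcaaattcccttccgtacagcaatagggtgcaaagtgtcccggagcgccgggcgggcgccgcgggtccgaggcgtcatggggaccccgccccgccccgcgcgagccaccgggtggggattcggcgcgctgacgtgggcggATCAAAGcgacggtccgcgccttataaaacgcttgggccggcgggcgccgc

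Neither motif was found in the windows of Wnt4 and Dkk1, which says only that these letters are not in them. The window of Wnt4 is 85.2% G and C, that of Dkk1 60.8%. The RBPJ core stood in 4 windows of 3 genes, Frzb (from 28 bases before the start), Tcf7l1 and 2 of the 4 windows of Lef1, and in 6.38% of 32851 promoter windows in all. The TCF/LEF core stood in windows of 2 genes, Wnt5b and Wnt11 (in Wnt11 on the opposite strand, from 51 bases before the start), and in 3.73% of all windows. A match is a run of letters and not a measured binding site.

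Among the ligands, Wnt4 rose in EC-Rbpj-KO yolk sacs. Wnt4 is a ligand known for its part in kidney and reproductive tract development. The gene gave signals of 996 and 854 in EC-Rbpj-KO yolk sacs, against 405 and 350 on their wild type arrays, a 2.45-fold rise (95% interval 1.85 to 3.24; log2 fold change 1.29, standard error 0.18, adjusted p = 0.00311 from limma). Both mutant arrays had a far higher signal than either wild type array. Signals in EC-N1ICD yolk sacs were 197 and 217, against 116 and 133 in wild type (log2 fold change 0.74, adjusted p = 0.120). The groups did not overlap there either, but the change did not pass the test. The second probe set of Wnt4 had log2 fold changes of 0.83 in EC-Rbpj-KO and 0.62 in EC-N1ICD, in the same direction as the first. The rise in EC-Rbpj-KO passed the limma test without any 1 of the 8 arrays (adjusted p = 0.00582 to 0.0420). With the test of the study's methods and Benjamini-Hochberg adjustment it had an adjusted p of 0.363, where no gene of the array passed, and over the other alternatives adjusted p ran from 0.00159 to 0.0420.

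Wnt2, a ligand that acts in lung and placental development, gave 375 and 273 in EC-N1ICD yolk sacs, against 117 and 196 in wild type (log2 fold change 1.08, adjusted p = 0.345). On the EC-Rbpj-KO arrays the signals were 68 and 204, against 59 and 73 in wild type, with the whole difference on replicate 2. Without replicate 1, the array with Xist, Wnt2 had a log2 fold change of 1.64 (adjusted p = 0.0270 from limma). With both arrays the log2 fold change was 0.84 and the adjusted p 0.310, so the call for Wnt2 rests on which array is kept.

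Wnt5a and Wnt11, ligands best known for signalling without β-catenin, were both above wild type on both EC-N1ICD arrays. Wnt5a lay below the filter, and its values come from a fit without it. Its signals were 149 and 127 in EC-N1ICD yolk sacs, against 58 and 46 in wild type (2.66-fold, 95% interval 1.74 to 4.08, adjusted p = 0.0596 from limma). The EC-Rbpj-KO arrays gave 32 and 32, against 37 and 34 in wild type, all under the overall median signal of their arrays (38 to 46). The difference between the models had an adjusted p of 0.251. The other 3 probe sets of Wnt5a had log2 fold changes of 0.30 to 0.83 for EC-N1ICD and -0.45 to 0.61 for EC-Rbpj-KO, where 2 of them had the opposite sign to the first, and the mean of all 4 gave a log2 value of 0.78 for EC-N1ICD over wild type. The EC-N1ICD change passed the adjusted threshold under 4 of 16 limma alternatives, among them both other scalings.

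Wnt11 gave 107 and 117 in EC-N1ICD yolk sacs, against 80 and 47 in wild type (log2 fold change 0.87, adjusted p = 0.309), and it passed the filter only through the EC-N1ICD arrays (mean of 57.2 over the other 6). Signals in EC-Rbpj-KO yolk sacs were 53 and 75, against 43 and 45 in wild type (log2 fold change 0.52, adjusted p = 0.414). The groups did not overlap in either set. Wnt5b, a relative of Wnt5a below the filter, gave 35 and 50 in EC-N1ICD yolk sacs against 19 and 32 in wild type, and 41 and 33 in EC-Rbpj-KO yolk sacs against 25 and 33 in wild type, values around or under the overall median signal.

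Porcn encodes the membrane enzyme that attaches the lipid to Wnt ligands. The signals were 149 and 146 in EC-Rbpj-KO yolk sacs, against 69 and 84 in wild type (1.94-fold, 95% interval 1.32 to 2.85, adjusted p = 0.0559 from limma). On the EC-N1ICD arrays the signals were 68 and 83, against 74 and 69 in wild type. Both EC-Rbpj-KO arrays lay above the other arrays, the adjusted p missed the threshold, and it passed under 4 of 17 limma alternatives. Its difference between the models had a log2 value of -0.88 for EC-N1ICD minus EC-Rbpj-KO (adjusted p = 0.402). Porcn has 1 probe set.

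The 2 remaining genes of this class lay below the filter. Wnt6 gave 56 and 58 in EC-N1ICD yolk sacs against 50 and 46 in wild type, and 37 and 42 in EC-Rbpj-KO yolk sacs against 35 and 36 in wild type. Rspo3, a secreted factor that strengthens Wnt signalling and is known in the mouse for a role in placental vessels, gave 109 and 87 in EC-N1ICD yolk sacs against 88 and 83 in wild type. The EC-Rbpj-KO arrays gave 26 and 77, against 32 and 33 in wild type. For Wnt6 the mutant arrays were the higher ones in both sets (adjusted p = 0.828 for EC-N1ICD and 0.859 for EC-Rbpj-KO), and for Rspo3 the groups overlapped in both.

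Among the secreted antagonists, Dkk1 rose in EC-Rbpj-KO yolk sacs. Dkk1 binds Lrp5 and Lrp6 and so blocks β-catenin signalling, and it is itself a known target of that signalling. The gene gave signals of 240 and 139 in EC-Rbpj-KO yolk sacs, against 30 and 33 in wild type, a 5.80-fold rise (95% interval 3.55 to 9.50; log2 fold change 2.54, standard error 0.32, adjusted p = 0.00192 from limma). Signals in EC-N1ICD yolk sacs were 96 and 86, against 46 and 36 in wild type (log2 fold change 1.16, adjusted p = 0.161). All wild type signals of Dkk1, in both sets, lay under the overall median signal of their arrays, so the size of the fold depends on how background is treated. Its mean over the 6 arrays other than EC-Rbpj-KO was 54.5, under the filter of 67.9, so it was tested through the group in which it is high, and without the filter its adjusted p was 0.00259. With 16 added to each signal the log2 fold change in EC-Rbpj-KO was 2.07. The second probe set had log2 fold changes of 1.65 in EC-Rbpj-KO and 0.89 in EC-N1ICD. The EC-Rbpj-KO rise passed without any 1 array (adjusted p = 0.00186 to 0.0134), and with the test of the study's methods and adjustment it had an adjusted p of 0.368, against 0.00106 to 0.0157 over the other alternatives.

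Sfrp1, which binds Wnt ligands outside the cell, gave 284 and 445 in EC-N1ICD yolk sacs, against 52 and 199 in wild type (3.49-fold, 95% interval 1.63 to 7.48, adjusted p = 0.16 from limma). Both mutant arrays lay above both wild type arrays, and the ratio between the 2 wild type signals was larger than that between the 2 mutant signals. Without wild type replicate 2, the log2 fold change was 2.77 and passed the test (adjusted p = 0.0486), and without wild type replicate 1 it was 0.84. In EC-Rbpj-KO, Sfrp1 had signals of 81 and 137, against 124 and 107 in wild type (log2 fold change -0.13). Its other 4 probe sets had log2 fold changes of 0.24 to 1.22 for EC-N1ICD, and of 0.05 to 0.30 for EC-Rbpj-KO, there with the opposite sign to the first.

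Frzb, a further Wnt-binding antagonist and 1 of the genes with an RBPJ core in its window above, lay below the filter. Its signals were 43 and 37 in EC-N1ICD yolk sacs against 21 and 23 in wild type, and 32 and 31 in EC-Rbpj-KO yolk sacs against 23 and 24 in wild type. The mutant arrays were higher in both sets, at signals under the overall median signal of every array. In EC-N1ICD the log2 fold change was 0.86 (adjusted p = 0.204), and its second probe set showed 0.07.

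The other antagonists showed less. Sfrp5 gave 101 and 128 in EC-N1ICD yolk sacs against 82 and 75 in wild type, without overlap, and its log2 fold change was 0.54 (adjusted p = 0.542). Dkk2 had a log2 fold change of -0.12 in each model and Dkk3, a divergent member of the Dkk family, 0.36 for EC-N1ICD and 0.06 for EC-Rbpj-KO. Sfrp2 and Wif1, both below the filter, had mean signals of 24.5 and 10.3 over the 8 arrays. No array had either gene above the median of all probe sets.

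**Figure D2:**
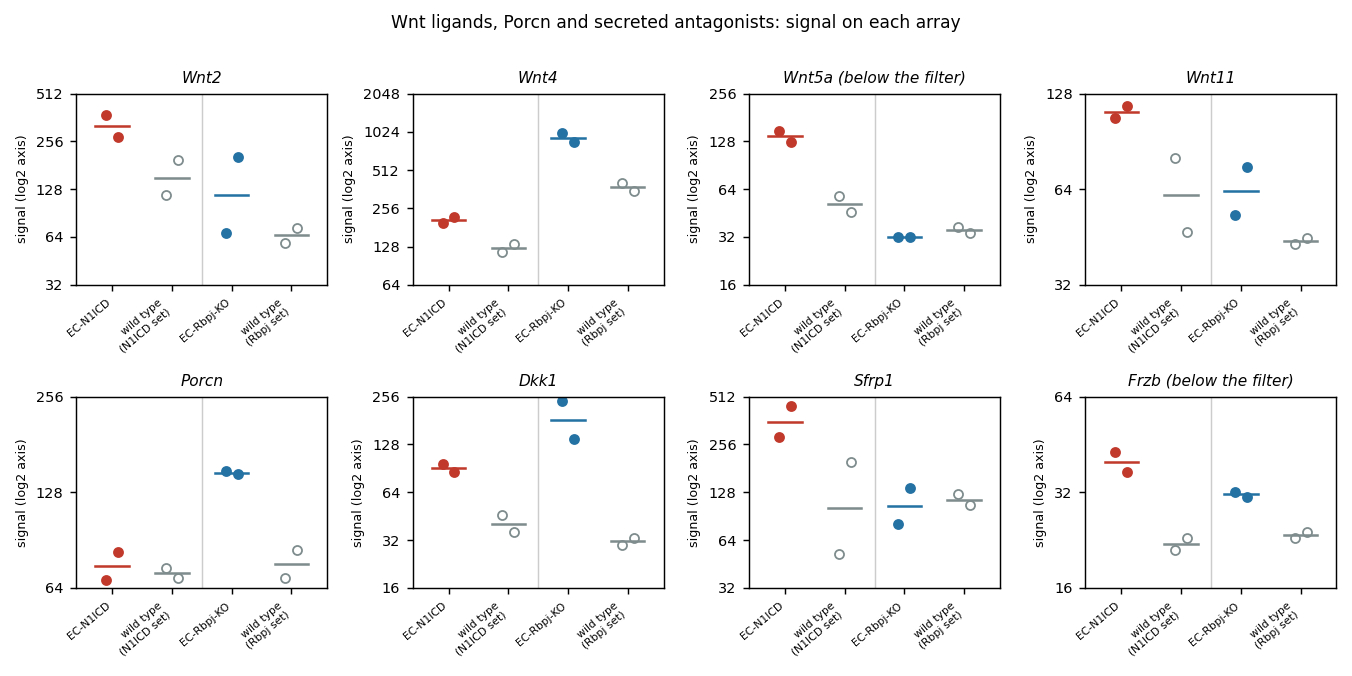
Signals (y axis, log2 scale, a panel per gene) of 5 genes of the ligand class and 3 secreted antagonists on each of the 8 arrays, with points for arrays and lines for geometric means of the 2 arrays of a group. EC-Rbpj-KO points of Wnt4 (996 and 854), Porcn (149 and 146) and Dkk1 (240 and 139) lie above both wild type points, and EC-N1ICD points of Wnt5a (149 and 127) and Sfrp1 (284 and 445) lie above theirs.

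Among the receptors no gene passed the adjusted threshold in either model. Fzd2 lay above wild type on both arrays of each mutant. The signals were 1023 and 785 in EC-N1ICD yolk sacs, against 680 and 478 in wild type (log2 fold change 0.65, adjusted p = 0.203), and 1083 and 999 in EC-Rbpj-KO yolk sacs, against 852 and 742 in wild type (log2 fold change 0.39, adjusted p = 0.318). Its 2 other probe sets had the same sign in both models, from 0.38 to 0.47 for EC-N1ICD and from 0.36 to 0.41 for EC-Rbpj-KO. Fzd1 gave 388 and 374 in EC-N1ICD yolk sacs, against 275 and 295 in wild type (log2 fold change 0.42, adjusted p = 0.352). On the EC-Rbpj-KO arrays the signals were 294 and 332, against 332 and 310 in wild type, with overlap.

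Fzd5, the receptor needed for yolk sac vessels in the mouse, gave 853 and 750 in EC-Rbpj-KO yolk sacs, against 1037 and 1133 in wild type (log2 fold change -0.44, adjusted p = 0.214 from limma). The EC-N1ICD arrays gave 416 and 573, against 424 and 453 in wild type. Its second probe set had log2 fold changes of -0.30 in EC-Rbpj-KO and -0.23 in EC-N1ICD, where its sign was opposite to that of the first probe set. Both EC-Rbpj-KO arrays lay below both wild type arrays, with a size that did not pass the test.

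Fzd7, a receptor of stem and progenitor cells, gave 515 and 341 in EC-Rbpj-KO yolk sacs, against 682 and 663 in wild type (log2 fold change -0.68, adjusted p = 0.114). Without EC-Rbpj-KO replicate 1 it was -0.98 and passed (adjusted p = 0.0359), so the call depends on that array. Its second probe set, with a mean signal of 50.6, had a log2 fold change of 0.29, opposite in sign. In EC-N1ICD, Fzd7 had signals of 643 and 779, against 700 and 512 in wild type.

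Ror2, a receptor for Wnt5a, gave 90 and 91 in EC-Rbpj-KO yolk sacs, against 45 and 69 in wild type (log2 fold change 0.70, adjusted p = 0.231), and 89 and 123 in EC-N1ICD yolk sacs, against 59 and 73 in wild type (log2 fold change 0.67, adjusted p = 0.417). All 4 mutant arrays were above all 4 wild type arrays, 89 to 123 against 45 to 73. The second probe set of Ror2 had log2 fold changes of 0.01 for EC-N1ICD and -0.30 for EC-Rbpj-KO, at a mean signal of 24.0. Ror1, below the filter, had a mean signal of 42.0.

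The co-receptors had no change that passed. Lrp6 had log2 fold changes of -0.12 for EC-N1ICD and -0.16 for EC-Rbpj-KO. Lrp5 gave 27 and 23 in EC-N1ICD yolk sacs against 33 and 26 in wild type, and 88 and 97 in EC-Rbpj-KO yolk sacs against 149 and 122 in wild type (log2 fold change -0.55, adjusted p = 0.357). Lrp5 passed the filter only through the arrays of the EC-Rbpj-KO set. The other 4 Frizzled genes, Fzd3, Fzd4, Fzd6 and Fzd8, had log2 fold changes of -0.19 to 0.56 for EC-N1ICD and of -0.16 to 0.28 for EC-Rbpj-KO. In Fzd3 and Fzd4, the probe sets of 1 gene did not share a sign.

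Among the intracellular genes none passed the adjusted threshold in either model. Ctnnb1, which encodes β-catenin, gave 13144 and 13969 in EC-N1ICD yolk sacs, against 12471 and 14532 in wild type. Signals in EC-Rbpj-KO yolk sacs were 17230 and 15210, against 15639 and 16452 in wild type. The 95% intervals of its fold were 0.874 to 1.16 for EC-N1ICD and 0.876 to 1.16 for EC-Rbpj-KO. Its other 2 probe sets differed from this in EC-Rbpj-KO, where they had signals of 1418 and 997 against 1727 and 2082 in wild type, and of 163 and 168 against 309 and 423 in wild type, log2 differences of -0.67 and -1.13. In EC-N1ICD the same 2 probe sets had log2 differences of 0.05 and 0.14. These secondary probe sets were not tested.

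Axin2, a direct target of β-catenin signalling that feeds back on it and often serves as its readout, gave 109 and 134 in EC-N1ICD yolk sacs, against 134 and 79 in wild type (fold interval 0.768 to 1.80). On the EC-Rbpj-KO arrays the signals were 110 and 108, against 137 and 119 in wild type (fold interval 0.558 to 1.31). It passed in neither model, and its intervals do not exclude a moderate change in either direction. Its second probe set had a mean signal of 14.2 over the arrays.

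Apcdd1, a membrane protein that inhibits Wnt signalling at the cell surface and a known Wnt target, was above wild type on both arrays of each mutant. The gene gave signals of 540 and 522 in EC-N1ICD yolk sacs, against 288 and 166 in wild type (2.43-fold, 95% interval 1.64 to 3.59, adjusted p = 0.0531 from limma). The EC-Rbpj-KO arrays gave 298 and 378, against 201 and 158 in wild type (1.88-fold, 95% interval 1.27 to 2.79, adjusted p = 0.0694). Both adjusted p values lie just above the threshold, and passed it under 7 of 18 limma alternatives for EC-N1ICD and 4 of 18 for EC-Rbpj-KO. Of its 5 other probe sets, 4 had the same sign for EC-N1ICD and 4 for EC-Rbpj-KO, and the mean of all 6 had log2 fold changes of 0.66 and 0.34 in these models.

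Dvl1, a cytoplasmic relay between Frizzled and the destruction complex, gave 2713 and 2984 in EC-N1ICD yolk sacs, against 3885 and 3470 in wild type (log2 fold change -0.37, adjusted p = 0.416). Signals in EC-Rbpj-KO yolk sacs were 4032 and 2735, against 3426 and 3696 in wild type. Its second probe set had log2 fold changes of -0.17 for EC-N1ICD and -0.13 for EC-Rbpj-KO. Dvl2 had log2 fold changes of -0.27 and -0.14 in EC-N1ICD and EC-Rbpj-KO, and Dvl3, below the filter, had a mean signal of 35.5.

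In the destruction complex, the scaffold Axin1 gave 529 and 517 in EC-N1ICD yolk sacs, against 452 and 343 in wild type (log2 fold change 0.41, adjusted p = 0.441), and 570 and 446 in EC-Rbpj-KO yolk sacs, against 480 and 530 in wild type. Its second probe set had the opposite sign in both models. Apc, the second scaffold, and the kinase Gsk3b had log2 fold changes of 0.21 and 0.18 for EC-N1ICD and of -0.03 and -0.13 for EC-Rbpj-KO. The 3 other probe sets of Apc had values of 0.0 to 0.35 for EC-N1ICD and of -1.15 to -0.22 for EC-Rbpj-KO, and were not tested. Those of Gsk3b did not share a sign in either model. For Axin1, Apc and Gsk3b the EC-N1ICD arrays lay above their wild type arrays without overlap, and none of these genes passed the test. Nkd1, which binds Dvl and dampens the signal, gave 115 and 80 in EC-N1ICD yolk sacs, against 86 and 32 in wild type, and 75 and 180 in EC-Rbpj-KO yolk sacs, against 126 and 104 in wild type, and its second probe set had the opposite sign in EC-N1ICD (-0.87).

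The nuclear factors bind DNA and recruit β-catenin. Tcf7l1, largely a repressor, had log2 fold changes of 0.14 for EC-N1ICD and -0.10 for EC-Rbpj-KO. Tcf7l2 gave 174 and 119 in EC-N1ICD yolk sacs, against 189 and 109 in wild type, and 418 and 337 in EC-Rbpj-KO yolk sacs, against 434 and 419 in wild type. Its probe sets did not share a sign in either model. Lef1 lay below the filter, with signals of 13 to 36 on the 8 arrays.

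**Figure D3:**
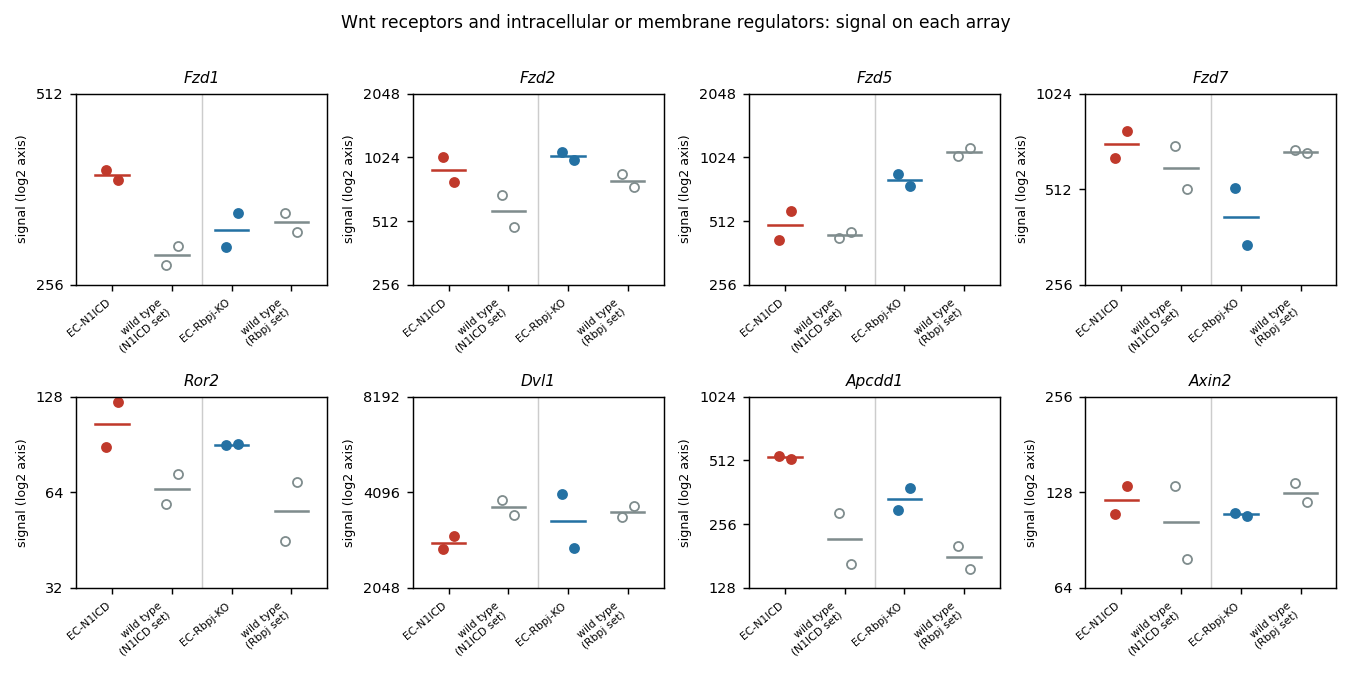
Signals (y axis, log2 scale, a panel per gene) of 5 receptors and 3 intracellular or membrane regulators on each of the 8 arrays, with points for arrays and lines for geometric means of the 2 arrays of a group. Apcdd1 is higher in both mutants (540 and 522 for EC-N1ICD, 298 and 378 for EC-Rbpj-KO) than in either wild type, EC-Rbpj-KO arrays of Fzd5 and Fzd7 lie below theirs, and the points of Axin2 overlap in EC-N1ICD.

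The 2 models share no control arrays, so their values may be set side by side. In 6 of the 31 genes (19.4%), both mutant arrays lay above both wild type arrays in each model, where 8.33% of all tested genes did so. These were Wnt4, Wnt11, Dkk1, Fzd2, Ror2 and Apcdd1. The share includes Wnt11, tested only through the EC-N1ICD arrays in which it is high, and Dkk1, tested only through the EC-Rbpj-KO arrays. No tested Wnt gene lay below wild type in both models, where 7.95% of all genes did so. No tested Wnt gene lay above in EC-N1ICD and below in EC-Rbpj-KO, or the reverse, where 3.84% and 2.35% of all genes did so. Wnt5a, below the filter and so not counted, lay above wild type in EC-N1ICD (149 and 127 against 58 and 46). In EC-Rbpj-KO it lay below wild type at low signals (32 and 32 against 37 and 34). Of the 6 genes above wild type in both models, Wnt4 and Dkk1 passed the test in EC-Rbpj-KO and none passed in EC-N1ICD.

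The wild type levels differed between the sets for many of these genes. Wnt4 wild type signals were 116 and 133 in the EC-N1ICD set, against 405 and 350 in the other, those of Lrp5 were 33 and 26, with 149 and 122 in the other, and those of Tcf7l2 were 189 and 109, with 434 and 419 in the other. Of the 31 genes, the wild type of the EC-N1ICD set lay above that of the EC-Rbpj-KO set in 6 and below it in 15, beside 23.4% and 46.5% of all tested genes. The share below is close to that of all genes. Strain, cross and set cannot be told apart in these values, and each mutant was set only against the wild type of its own set. The EC-N1ICD level of Wnt4 (197 and 217) lay below the wild type level of the EC-Rbpj-KO set.

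A further 106 genes of the pathway were listed (other ligands and ligand secretion, antagonists, receptors, intracellular genes and target genes), of which 103 were matched and 60 tested. In EC-N1ICD, 2 rose and none fell, with 8 higher and 3 lower at an unadjusted p under 0.05. In EC-Rbpj-KO, 3 rose and 1 fell, with 10 higher and 10 lower unadjusted. The shares of all genes called are those given above. The 60 genes had median log2 fold changes of 0.09 for EC-N1ICD and 0.04 for EC-Rbpj-KO. None had a change that differed between the models.

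Of the 15 tested target genes, Jun and Cd44 rose in EC-N1ICD. Jun, a transcription factor of the AP-1 complex, gave 266 and 342 in EC-N1ICD yolk sacs, against 70 and 119 in wild type (log2 fold change 1.72, adjusted p = 0.0364 from limma). On the EC-Rbpj-KO arrays the signals were 226 and 133, against 70 and 80 in wild type (log2 fold change 1.21, adjusted p = 0.0516). Cd44, a hyaluronan receptor, gave 698 and 578 in EC-N1ICD yolk sacs, against 276 and 234 in wild type (log2 fold change 1.32, adjusted p = 0.0214), and 204 and 144 in EC-Rbpj-KO yolk sacs, against 112 and 101 in wild type (log2 fold change 0.69, adjusted p = 0.103). Both genes lay above wild type on both arrays of each mutant. Both calls were lost with sex as a term (adjusted p = 0.441 for Jun and 0.345 for Cd44) and on leaving out each array of the EC-N1ICD set in turn (0.0693 to 0.183 for Jun, 0.0627 to 0.310 for Cd44). The mean of all 4 probe sets of Cd44 had a log2 fold change of 0.62 (adjusted p = 0.309). Over all alternatives, adjusted p ran from 0.0171 to 0.582 for Jun and from 0.0105 to 0.580 for Cd44.

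In EC-Rbpj-KO, the targets Sox17 and Cldn1 rose and Myc fell. Sox17, a transcription factor of endoderm and endothelium, gave 454 and 411 in EC-Rbpj-KO yolk sacs, against 157 and 174 in wild type (log2 fold change 1.39, adjusted p = 0.00186 from limma). The EC-N1ICD arrays gave 694 and 585, against 519 and 479 in wild type. The Sox17 call held without any 1 array (adjusted p = 0.00338 to 0.0178). Cldn1, a protein of epithelial tight junctions, gave 1694 and 944 in EC-Rbpj-KO yolk sacs, against 599 and 410 in wild type (log2 fold change 1.35, adjusted p = 0.0193). It lost its call without EC-Rbpj-KO replicate 1 (adjusted p = 0.0785) and without wild type replicate 2 (0.177), and the mean of its 4 probe sets had a log2 fold change of 0.56 (0.0704), within a range of 0.00590 to 0.494 over all alternatives. Sox17 is also in the list of visceral endoderm markers. Their sum was 164468 and 175700 in EC-Rbpj-KO yolk sacs against 179334 and 193692 in wild type. Far brighter genes, among them Afp (28320 and 29705 in EC-Rbpj-KO yolk sacs), weigh most in that sum. Endothelial markers summed to 4120 and 2820 in EC-Rbpj-KO yolk sacs against 2409 and 2291 in wild type. Of these markers, Tek and Emcn had negative log2 fold changes (-0.73 and -0.16). The part of either cell type in the rise of Sox17 was not tested.

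Myc, a growth regulator and classical β-catenin target, gave 260 and 179 in EC-Rbpj-KO yolk sacs, against 431 and 430 in wild type (log2 fold change -0.997, adjusted p = 0.0278). Signals in EC-N1ICD yolk sacs were 328 and 330, against 626 and 441 in wild type (log2 fold change -0.68, adjusted p = 0.229). Myc was below wild type on all 4 mutant arrays. The call was lost without EC-Rbpj-KO replicate 2 (adjusted p = 0.124) and without either wild type array (0.126 and 0.162), within a range of 0.0166 to 0.434 over all alternatives. Named targets thus moved in both directions, Sox17 and Cldn1 up and Myc down.

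Of the 31 other intracellular genes tested, Prickle1 rose in EC-Rbpj-KO. Prickle1 is a component of planar cell polarity signalling, a branch that shares Frizzled and Dvl with the β-catenin branch. Its signals were 505 and 520 in EC-Rbpj-KO yolk sacs, against 318 and 194 in wild type (log2 fold change 1.04, adjusted p = 0.0239), and in EC-N1ICD 417 and 432, against 428 and 356 in wild type. The call was lost as the mean of its 3 probe sets (log2 fold change 0.39, adjusted p = 0.220), without either EC-Rbpj-KO array (0.0534 and 0.0757) and without wild type replicate 2 (0.229), within a range of 0.00870 to 0.474.

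The other 3 classes had no gene past the threshold, and the 2 genes with the smallest p in each were as follows. Wls, the carrier of Wnt ligands to the cell surface, gave 630 and 588 in EC-N1ICD yolk sacs, against 496 and 444 in wild type (log2 fold change 0.38, adjusted p = 0.554). The ligand Wnt7a gave 154 and 225 in EC-N1ICD yolk sacs, against 313 and 222 in wild type (log2 fold change -0.50, adjusted p = 0.601). Wls was higher without overlap, whereas the groups of Wnt7a overlapped. Of 2 antagonists, Igfbp4 gave 11081 and 11592 in EC-N1ICD yolk sacs, against 13078 and 12256 in wild type (log2 fold change -0.16, adjusted p = 0.438), and Sfrp4 gave 83 and 111 in EC-Rbpj-KO yolk sacs, against 76 and 66 in wild type (log2 fold change 0.44, adjusted p = 0.362). Znrf3, a ligase that removes Frizzled from the surface, gave 200 and 285 in EC-Rbpj-KO yolk sacs, against 431 and 340 in wild type (log2 fold change -0.68, adjusted p = 0.0966). Lgr4, a receptor for R-spondins, gave 1107 and 1008 in EC-Rbpj-KO yolk sacs, against 1256 and 1434 in wild type (log2 fold change -0.35, adjusted p = 0.223). Both receptors lay below wild type on both EC-Rbpj-KO arrays.

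**Figure D4:**
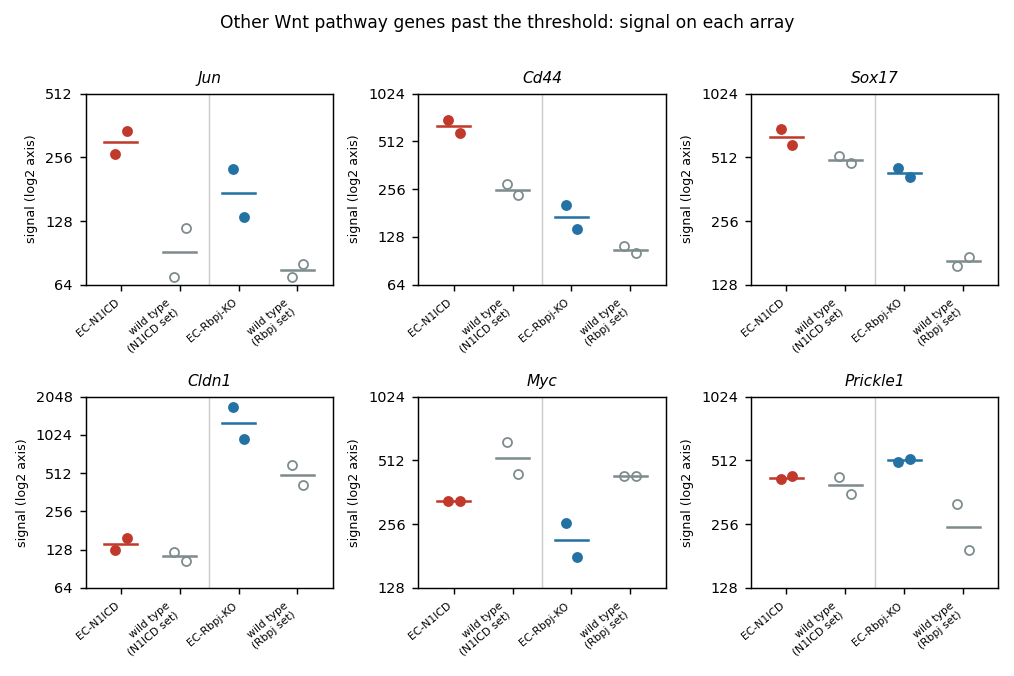
Signals (y axis, log2 scale, a panel per gene) of the 6 other pathway genes past the adjusted threshold in a model, on each of the 8 arrays, with points for arrays and lines for geometric means of the 2 arrays of a group. Jun and Cd44 lie above wild type in both mutants, Sox17, Cldn1 and Prickle1 are highest above wild type in EC-Rbpj-KO, and Myc lies below wild type on all 4 mutant arrays (328, 330, 260 and 179).

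Marker lists for other cell types moved with the mutants and stand here beside the Wnt genes. In EC-N1ICD, 14 of the 31 tested Wnt genes lay above wild type on both arrays, beside 23.7% of all tested genes. There, smooth muscle markers (6 listed, 4 tested, 2 called higher) and cardiac muscle markers (8 listed, 2 tested, 1 called higher) had the higher sums given above. Primitive erythroid markers (10 listed, 9 tested, 0 called) summed to 47429 and 80506 in EC-N1ICD yolk sacs, against 91329 and 95888 in wild type. In EC-Rbpj-KO yolk sacs their sum was 53959 and 66057, against 68519 and 66669 in wild type (0 called), and that of smooth muscle markers 4440 and 5580, against 4113 and 4141 in wild type (0 called). In EC-Rbpj-KO, where Wnt4 and Dkk1 rose, macrophage markers (8 listed, 6 tested, 2 called higher and 1 lower) summed to 4014 and 2877, against 1809 and 1351 in wild type, and in EC-N1ICD yolk sacs to 2371 and 2106, against 1940 and 1808 in wild type (0 called). Endothelial markers (12 listed, 10 tested) summed to 3986 and 3795 in EC-N1ICD yolk sacs, against 4530 and 3374 in wild type (0 called). In EC-Rbpj-KO yolk sacs they summed to 4120 and 2820, against 2409 and 2291 in wild type (2 called higher). Of these markers, Cldn5 had the largest rise in EC-Rbpj-KO, with 1095 and 715 against 302 and 273 in wild type. Tek and Emcn had negative log2 fold changes in EC-Rbpj-KO (-0.73 and -0.16). Trophoblast markers (7 listed, 4 matched, 3 tested, 1 called higher) summed there to 3155 and 2711, against 1740 and 1799 in wild type. Most of this was Rhox6, with 2458 and 1800 against 1114 and 1100 in wild type. Cdx2 was also higher (log2 fold change 0.51), whereas Esx1 and Tfap2c had log2 fold changes of -0.03 and -0.41. Visceral endoderm markers (12 listed, 12 tested) summed to 166031 and 161904 in EC-N1ICD yolk sacs against 164486 and 164490 in wild type (0 called). The tissue named in the labels thus carried its markers at high signal. In EC-Rbpj-KO, 1 visceral endoderm marker was called higher, Sox17, and 2 were called lower. Markers of mesenchyme and mesothelium (12 listed, 10 tested) summed to 39348 and 37279 in EC-N1ICD yolk sacs against 39466 and 40016 in wild type (0 called). In EC-Rbpj-KO yolk sacs they summed to 55393 and 49998 against 49597 and 48511 in wild type, with 0 called higher and 1 lower. Neural tube markers (7 listed, 0 tested) summed to 226 and 205 in EC-N1ICD yolk sacs against 161 and 177 in wild type, and to 196 and 200 in EC-Rbpj-KO yolk sacs against 171 and 162 in wild type, and 4 of the 7 were below the array median on all arrays. Decidua markers (4 listed, 1 tested) summed to 283 and 521 in EC-N1ICD yolk sacs against 194 and 380 in wild type, and to 175 and 78 in EC-Rbpj-KO yolk sacs against 322 and 74 in wild type. The part of these cell types in the values of the Wnt genes was not tested.

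**Figure D5:**
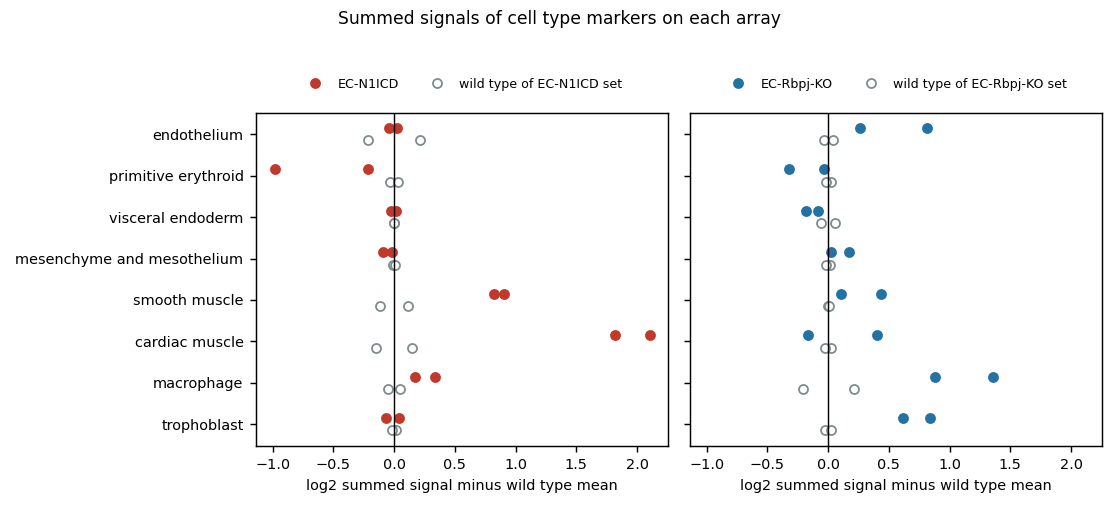
Summed signals of 8 marker lists on each array, as log2 minus the wild type average of that set, by array and group. The sums of smooth and cardiac muscle markers lie above wild type in EC-N1ICD (20118 and 18930 against 9877 and 11626 for smooth muscle). The sums of macrophage, trophoblast and endothelial markers lie above it in EC-Rbpj-KO. Single markers of a list can go the other way.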

How the data were processed

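RNA of whole E9.5 yolk sacs was measured on 8 single-channel Affymetrix arrays of 45101 probe sets, with 2 arrays in each of 4 groups. The values are signal intensity on a linear scale as deposited by the authors, and the submitters' processing notes name MAS5. Its version and scaling are not given in the sources used here, and the number of arrays limits the precision. Probe sets that name several genes (932) or none (9211) were left out. Of the probe sets of a gene, the brightest on average over the 8 arrays stood for it, and the test took genes whose average signal exceeded the 40th percentile (67.9). The test used limma 3.58.1 (R 4.3.3) on log2 values (4 group means, empirical Bayes with trend, 4 residual and 7.37 prior degrees of freedom), with Benjamini-Hochberg adjustment over 10913 genes at 0.05. Values of genes below the filter come from the same fit without it. Groups followed the sample labels, and the contrasts set each mutant against its own wild type. The fit was tested on simulated data.

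Array values are given for each Wnt gene with an unadjusted p under 0.05 in either model. Every other Wnt gene is named at least once, and for some of these array values are given as well. Other pathway genes are named where they passed the adjusted threshold, and in a class with none the 2 with the smallest p. The Wnt genes and all lists were chosen with earlier results of these data known. The alternatives were scaling, offset, filter, probe set rule, trend, arrays in the fit, sex as a term, the methods' test and leaving out each array, with the first title number as a block added after seeing the data. The methods' test is the test that the paper names for its data in general, since it names none for the arrays. Promoter sequences are from RefSeq (GRCm38.p6).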

Additional observations from a re-analysis of the deposited data

How the results depend on the processing

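Of the 19 changes of named Wnt genes, each under up to 20 alternatives, 336 values kept their direction and side of the threshold, 29 passed the threshold newly (6 of them under the methods' test unadjusted), 2 lost it (Wnt4 and Dkk1 in EC-Rbpj-KO, under the methods' test with adjustment) and 0 reversed. The number of Wnt genes past the threshold in EC-N1ICD, 0, was 1 under median centring, quantile normalisation, 16 added before the log and a fit of the 4 arrays of the set alone (Apcdd1 each time), and 3 under the methods' test unadjusted. Leaving out 1 array gave 0 to 1. In EC-Rbpj-KO the number, 2, was 4 under median centring and with sex as a term, which rests on EC-Rbpj-KO replicate 1 alone, 3 under quantile normalisation, 16 added, the mean of all probe sets, no trend and the methods' unadjusted test, 1 with a filter at the 60th percentile (280), which removes Dkk1, and 0 under the methods' test with adjustment. Leaving out 1 array gave 2 to 4. The number differing between the models stayed 0.

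Over all tested genes, the 65 called in EC-N1ICD became 106 under median centring, 118 under quantile normalisation, 27 with the 60th percentile filter, 103 with the 4 arrays of the set alone, 15 with sex as a term, and 0 under the methods' test with adjustment or 939 without, and 7 to 140 on leaving out 1 array. The 541 called in EC-Rbpj-KO (218 higher, 323 lower) became 266 with the 4 arrays alone, and 0 with or 1312 without adjustment under the methods' test, and 147 to 628 on leaving out 1 array. Their split became 375 higher and 300 lower under median centring, 359 and 305 under quantile normalisation, and 136 and 478 with sex as a term. The 29 genes that differed between the models became 17 with the mean of all probe sets, 3 without the trend and 71 with sex as a term, and 5 to 80 on leaving out 1 array. The median of the Wnt genes in EC-Rbpj-KO, -0.04, was 0.0347 under median centring and 0.0829 with the mean of all probe sets, and ran from -0.0450 to 0.0512 on leaving out 1 array. The median in EC-N1ICD, 0.24, ran from 0.16 to 0.47, the highest without wild type replicate 1. The 60th percentile filter gave no median for the secreted antagonists. No paired analysis was possible because replicates were numbered in accession order and the labels do not say what the first number of a title marks. A fit with that number as a replicate block, chosen after seeing the data, rests on 1 mutant array a set, since replicate 1 of each mutant has a number of its own. In it, 4 Wnt genes passed in EC-Rbpj-KO (Wnt2, Wnt4, Dkk1 and Fzd7) and 0 in EC-N1ICD, 26 of all genes were called in EC-N1ICD, 430 in EC-Rbpj-KO and 18 between the models, and the calls of Jun, Cd44, Cldn1 and Prickle1 were lost (adjusted p = 0.0702, 0.111, 0.0877 and 0.0741). Low signals limit the comparison of the 10 Wnt genes below the filter, and the cause of each change above was not tested beyond what the setting itself removes.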
